A study of Homo sapiens with 4 samples.

Results

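A set of 10 genes of sphingosine 1-phosphate (S1P) and ceramide turnover, out of 29655 gene names in the count tables, was followed in the human head and neck squamous carcinoma line UMSCC74B. They are the S1P phosphatases SGPP1 and SGPP2, the S1P lyase SGPL1, the sphingosine kinases SPHK1 and SPHK2, the S1P receptors S1PR1, S1PR2 and S1PR3, the acid ceramidase ASAH1 and the ceramide synthase CERS6. The set was chosen because SGPP2 had 1 of the largest differences between the groups, so the values of SGPP2 are given as a description with no test. The other 9 were chosen by their place in the same pathway, with earlier results of these data known. All 10 were found in the tables by name, and all 10 passed the filter on low expression among the 11893 protein-coding genes tested.

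Ceramide is the hub of sphingolipid metabolism. Ceramide synthases join a fatty acyl chain to a sphingoid base, ceramidases release sphingosine from ceramide, and sphingosine kinases phosphorylate sphingosine to S1P. S1P is returned to sphingosine by the S1P phosphatases of the endoplasmic reticulum or is split irreversibly by the S1P lyase, and outside the cell it acts on G protein-coupled receptors that govern migration, contraction and survival.

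The study asked which transcripts change when PRMT5, an arginine methyltransferase that makes symmetric dimethylarginine, is silenced. The values are counts of RNA sequencing reads per gene. By the labels, control cells had received control shRNA plasmids and PRMT5 KD cells PRMT5 shRNA plasmids, both for 72 h, with 2 libraries in each group. Both groups were of the same line, labelled wild type, and the labels name no other allele or agent. The study's methods give the PRMT5 shRNA as a commercial product. They describe lentiviral transduction with polybrene for 72 h, so the route of delivery is uncertain. Neither the methods nor the labels say whether replicates came from separate cultures. The p-values therefore measure the spread between these libraries, which may be technical.

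PRMT5 itself was counted at 94.3 and 84.2 CPM (counts scaled by the TMM-adjusted library size to a common total) in Control 1 and Control 2, and at 132 and 150 CPM in PRMT5 KD 1 and PRMT5 KD 2. The transcript thus ran against the label, with more PRMT5 counts beside PRMT5 KD than in control (89.3 ± 7.09 against 141 ± 12.4 CPM, SD, n = 2; log2 fold change 0.66, SE 0.12, FDR = 0.00546 by edgeR). The study reports silencing of PRMT5 by immunoblot, a measure of protein that RNA counts do not show. PRMT5 RNA was higher where it was labelled as knocked down. Every direction below is therefore that of the libraries labelled PRMT5 KD, written as beside the PRMT5 KD label, relative to control. Paired values are given for replicate 1 and then replicate 2. The 4 libraries held 52185289 to 65964558 counts, of which 71.5% to 81.4% lay on protein-coding names. Ribosomal RNA genes took 15.3% and 14.2% of counts in control and 26.2% and 18.02% beside the PRMT5 KD label. Their part in the results was not tested. Across the 11893 genes, 5416 (45.5%) were called at a false discovery rate (FDR) under 0.05 and a log2 fold change of 0.5 or more in either direction, 2521 (21.2%) higher and 2895 (24.3%) lower.

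Of the 9 members other than SGPP2, 7 were called, 1 higher (21.2% of all genes tested were called higher) and 6 lower (24.3% of all genes). Their median log2 fold change was -0.80, against -0.0077 over all genes tested. These members were picked with the result known, so their share is given beside the background without a reading. SGPP1 and SGPL1, which remove S1P, and the receptors S1PR1 and S1PR2 lay on the lower side. SPHK1 lay on the higher side, and SPHK2 and S1PR3 were not called.

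SGPP2, the S1P phosphatase of more restricted expression, had the largest difference of the 10. Its promoter sequences are shown because the gene has a pair of RefSeq start sites with different upstream sequence, and S1PR1 is shown as the member with the next largest difference downward. RefSeq sequences (GRCh38.p14) were available for 8 of the members in 13 windows of 250 bases before a start. SGPP1 was not matched there and ASAH1 was not used here. The 160 bases before each start, on the plus strand from 5′ to 3′, read as follows, at chr2:222423828-222423987 and chr2:222424383-222424542 for SGPP2 and chr1:101236859-101237018 for S1PR1. Capitals mark an NF-kB consensus match and the AP-1 match in the first, and GC boxes in the second. No searched motif lies in the third.
SGPP2 upstream start: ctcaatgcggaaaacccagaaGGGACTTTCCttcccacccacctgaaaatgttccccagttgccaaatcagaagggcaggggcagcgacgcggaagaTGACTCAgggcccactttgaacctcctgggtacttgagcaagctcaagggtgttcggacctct
SGPP2 downstream start: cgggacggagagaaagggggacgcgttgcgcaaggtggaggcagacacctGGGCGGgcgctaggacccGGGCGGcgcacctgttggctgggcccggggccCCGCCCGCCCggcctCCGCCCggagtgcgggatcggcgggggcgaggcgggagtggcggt
S1PR1: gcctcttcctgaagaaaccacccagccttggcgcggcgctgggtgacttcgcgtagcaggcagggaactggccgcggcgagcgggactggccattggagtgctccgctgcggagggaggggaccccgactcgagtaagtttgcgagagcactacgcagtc

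The motifs were chosen after the sequences had been seen and were searched on both strands. They were the NF-kB consensus, AP-1 (TGANTCA), the cAMP response element CRE (TGACGTCA) and the GC box (GGGCGG), and GC box matches that overlap were each counted. In the 250 bases before the upstream SGPP2 start (position 222423988), NF-kB consensus matches lay 239 and 139 bases and the AP-1 match 63 bases before the start. The NF-kB consensus was found in 5.21% and AP-1 in 6.57% of 35116 RefSeq windows of the same length. Among the 13 member windows the NF-kB consensus was found in that of SGPP2 alone, and AP-1 also 71 bases before the SPHK1 start at position 76385278. The window before the downstream SGPP2 start (position 222424543), which is also where the GENCODE gene begins, held 7 GC boxes, a motif present in 42.6% of all windows. Its GC content was 76% with 31 CpG, against 52% with 7 CpG upstream and medians of 58% and 11 over all windows. S1PR1 had none of the 4 motifs, at 64.4% GC and 18 CpG, and S1PR2 had 1 CRE, 250 bases before its start, and 3 GC boxes. CRE was present in 1.65% of all windows. These matches describe the sequence and show no binding.

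SGPP2 (chr2:222424543-222562621, plus strand, GRCh38) received 946 and 1274 counts in control and 11 and 5 counts beside the PRMT5 KD label. The exact Poisson 95% intervals of these counts were 887 to 1008, 1205 to 1346, 5.49 to 19.7 and 1.62 to 11.7, and they cover counting error only, since PCR copies of a molecule are not independent. In CPM the levels were 23.9, 25.5, 0.231 and 0.105. Both libraries labelled PRMT5 KD were far below both control libraries, and the remaining signal rested on a handful of reads. The means were 24.7 ± 1.11 and 0.168 ± 0.0895 CPM (SD, n = 2), so the level in the libraries labelled PRMT5 KD was 0.680% of control, or 147-fold lower. The fitted log2 fold change was -7.18, the 4th most negative of the 11893 genes. In bulk RNA, fewer cells expressing the gene and less RNA per cell cannot be told apart.

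SGPP1, the widely expressed S1P phosphatase (chr14:63684216-63728065, minus strand), had levels of 59.4 and 71.2 CPM in control and 43.5 and 41.1 CPM beside the PRMT5 KD label. The groups did not overlap. SGPP1 fell by 0.63 on the log2 scale (SE 0.13, 95% interval -0.94 to -0.31, edgeR FDR = 0.00795). This call was lost without Control 2, at a log2 fold change of -0.49, and with scaling to total counts alone, at -0.45. SGPL1, the pyridoxal phosphate-dependent lyase that ends sphingolipid breakdown (chr10:70815905-70895816, plus strand), had 148 and 134 CPM in control and 88.1 and 74.4 CPM beside the PRMT5 KD label. Both lower libraries were again those labelled PRMT5 KD, and the means were 141 ± 9.37 and 81.3 ± 9.73 CPM (SD, n = 2). SGPL1 fell by 0.80 on the log2 scale (SE 0.13, 95% interval -1.11 to -0.48, edgeR FDR = 0.00322). SGPP1 and SGPL1 thus both had lower counts beside the label. SGPP2 chose the set, so it adds nothing to that statement.

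Because a ratio within a library does not depend on scaling, the make-up of each enzyme pair was computed from RPKM (CPM divided by exon length in kilobases). SGPP2 made up 21.2% and 19.3% of the summed RPKM of both phosphatases in the control libraries and 0.354% and 0.170% in those labelled PRMT5 KD (20.3 ± 1.33% against 0.262 ± 0.130%, SD, n = 2). SGPP1 was thus the major phosphatase transcript already in control and nearly the whole of the pair in the libraries labelled PRMT5 KD. The summed RPKM of both phosphatases and the lyase was 35.4 and 38.1 in control and 20.7 and 18.8 in the libraries labelled PRMT5 KD. This sum was chosen after the values had been seen and includes SGPP2, which chose the set.

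**Figure D1:**
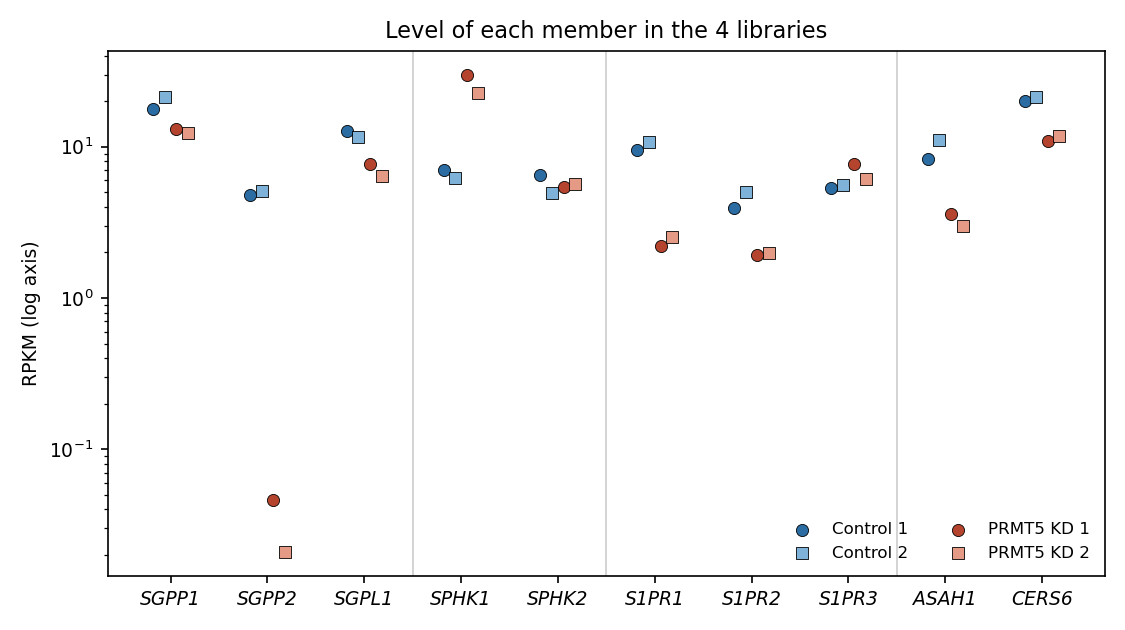
RPKM (log axis) of the 10 members in each library, blue for control and red for PRMT5 KD, with circles for replicate 1, squares for replicate 2 and grey lines between roles. SGPP2 drops from 4.80 and 5.11 to 0.0464 and 0.0210, while SPHK1 is higher in both libraries labelled PRMT5 KD and the SPHK2 points of the groups overlap.

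SPHK1, the kinase that can be induced by growth factors and acts at the plasma membrane (chr17:76376584-76387860, plus strand), was the only member called higher. Its levels were 31.1 and 27.5 CPM in control and 132 and 100.4 CPM beside the PRMT5 KD label. Both libraries with that label stood well above both controls (29.3 ± 2.57 against 116 ± 22.6 CPM, SD, n = 2), a 3.97-fold difference. SPHK1 rose by 1.99 on the log2 scale (SE 0.17, 95% interval 1.59 to 2.39, edgeR FDR = 0.000431). PRPSAP1, which overlaps SPHK1 on the opposite strand, had 984 and 1272 counts in control and 1091 and 1246 counts beside the PRMT5 KD label. The library kit is directional, but whether the counting used strand was not tested.

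SPHK2, the kinase found largely in the nucleus and at internal membranes (chr19:48619291-48630717, plus strand), had 38.8 and 29.7 CPM in control and 32.5 and 34.2 CPM beside the PRMT5 KD label. The groups overlapped, with the controls at both ends of the range. The log2 fold change was -0.04 (SE 0.16, 95% interval -0.42 to 0.34, edgeR FDR = 0.848), and its sign changed with the processing. DBP lies on the opposite strand of SPHK2, with 705 and 1229 counts in control and 225 and 212 counts beside the PRMT5 KD label. SPHK1 made up 52.2% and 55.7% of the summed kinase RPKM in control and 84.7% and 80.0% beside the PRMT5 KD label (53.9 ± 2.51% against 82.4 ± 3.35%, SD, n = 2). The kinases were near parity in control, and SPHK1 was the main kinase transcript beside the PRMT5 KD label. Their summed RPKM was 13.5 and 11.2 in control against 35.4 and 28.4.

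**Figure D2:**
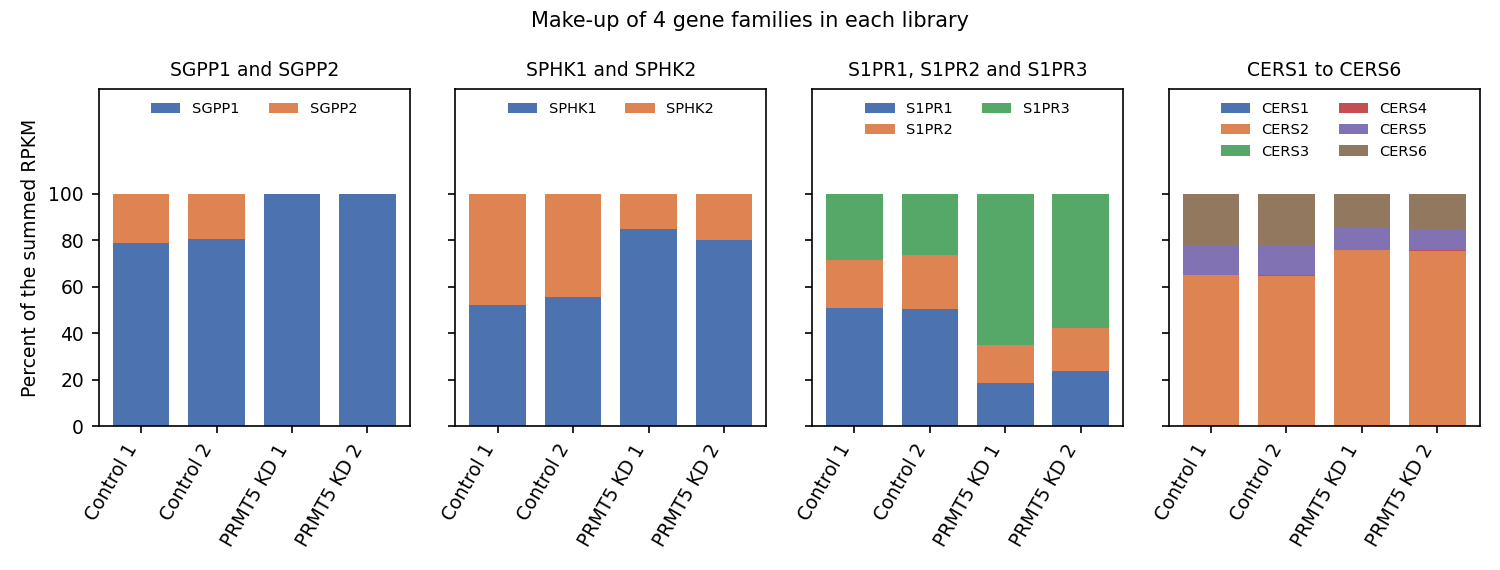
Percent of the summed RPKM that each gene took in its family, per library, for the S1P phosphatases, the sphingosine kinases, S1PR1 to S1PR3 and CERS1 to CERS6. Each bar sums to 100, SGPP2 nearly vanishes from the first panel in the libraries labelled PRMT5 KD, and S1PR3 grows from 28.4% and 26.3% to 65.2% and 57.6% in the third.

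S1PR1, the Gi-coupled receptor best known from lymphocyte egress and vessel maturation (chr1:101236865-101243713, plus strand), had 49.4 and 56.1 CPM in control and 11.5 and 13.1 CPM beside the PRMT5 KD label. Both groups were tight and far apart (52.8 ± 4.73 against 12.3 ± 1.16 CPM, SD, n = 2), a level 4.29-fold lower. S1PR1 fell by 2.10 on the log2 scale (SE 0.14, 95% interval -2.44 to -1.76, edgeR FDR = 0.000280). It had the most negative log2 fold change among the 9 members tested.

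S1PR2, a receptor that also couples to G12 and G13 (chr19:10221433-10231331, minus strand), had 14.3 and 18.3 CPM in control and 7.04 and 7.24 CPM beside the PRMT5 KD label. The groups did not overlap, and the level was 2.29-fold lower. S1PR2 fell by 1.19 on the log2 scale (SE 0.17, 95% interval -1.62 to -0.77, edgeR FDR = 0.00215). The annotated span of DNMT1 overlaps S1PR2 on the same strand, and DNMT1 had 7078 and 7302 counts in control and 15768 and 16475 counts beside the PRMT5 KD label, so S1PR2 counts are uncertain as far as reads were shared.

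S1PR3, which couples to Gi, Gq and G12 or G13 (chr9:88990863-89005155, plus strand), had 72.8 and 77.1 CPM in control and 106 and 83.9 CPM beside the PRMT5 KD label. Both libraries with the label were above both controls, but PRMT5 KD 2 only slightly (74.95 ± 3.04 against 94.97 ± 15.7 CPM, SD, n = 2). The log2 fold change of 0.34 did not pass the threshold (SE 0.14, 95% interval 0.00015 to 0.68, edgeR FDR = 0.0825). Without PRMT5 KD 2 it was 0.50 and called, with scaling to total counts alone 0.52 and called, and with a length and GC correction 0.65 and called. The tables also list C9orf47, a RefSeq synonym of S1PR3, with 155, 141, 177 and 183 counts in Control 1, Control 2, PRMT5 KD 1 and PRMT5 KD 2, so reads of this locus may be split between both names.

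Within the summed RPKM of these 3 receptors, S1PR1 took 50.6% and 50.2% in control and 18.5% and 23.7% beside the PRMT5 KD label. S1PR2 took 21.0% and 23.5% in control and 16.3% and 18.7%. S1PR3 took 28.4% and 26.3% in control and 65.2% and 57.6% (27.3 ± 1.501% against 61.4 ± 5.35%, SD, n = 2). On union exon lengths the leading receptor transcript was S1PR1 in control and S1PR3 beside the label, and the 3 receptors together summed to 18.7 and 21.4 RPKM against 11.9 and 10.6. On the length of the MANE Select transcript, S1PR1 and S1PR3 were not separated by level in control. There S1PR1 took 46.2% and 46.9% in control and 13.5% and 18.1% beside the PRMT5 KD label, and S1PR3 took 43.6% and 41.4% in control and 80.1% and 74.3% beside the PRMT5 KD label. S1PR4 and S1PR5 lay under the filter on low expression, at no more than 0.143 RPKM in any library.

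ASAH1, the lysosomal ceramidase that frees sphingosine from ceramide (chr8:18055992-18084998, minus strand), had 128 and 171 CPM in control and 55.1 and 46.1 CPM beside the PRMT5 KD label. The control libraries differed from each other by more than those labelled PRMT5 KD, yet the groups lay apart (149 ± 29.9 against 50.6 ± 6.40 CPM, SD, n = 2). ASAH1 was 2.96-fold lower and fell by 1.56 on the log2 scale (SE 0.18, 95% interval -1.99 to -1.14, edgeR FDR = 0.000972). CERS6, a ceramide synthase that favours C16 acyl chains, is the synthase among the members (chr2:168456249-168775134, plus strand). Its levels were 138 and 146 CPM in control and 74.3 and 80.7 CPM beside the PRMT5 KD label. The replicates lay close together (142 ± 5.67 against 77.5 ± 4.56 CPM, SD, n = 2), and CERS6 fell by 0.87 on the log2 scale (SE 0.11, 95% interval -1.14 to -0.61, edgeR FDR = 0.00134). ASAH1, which breaks ceramide down, and CERS6, which makes it, thus both had lower counts beside the PRMT5 KD label.

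CERS6 was the second ceramide synthase by level. It took 22.2% and 22.2% of the summed RPKM of CERS1 to CERS6 in control and 14.5% and 15.0% beside the PRMT5 KD label. CERS2, the synthase of very long acyl chains, took 64.8% and 64.7% in control and 75.7% and 75.5%. CERS2 itself had a log2 fold change of -0.06 (SE 0.12, edgeR FDR = 0.672), so the shift in shares came with lower values of CERS5 and CERS6. CERS5 took 12.7% and 12.8% in control and 9.59% and 9.41%, while CERS4 was at no more than 0.287% and CERS3 had no count in any library. On MANE Select lengths the share of CERS6 was 11.99% and 11.9% in control and 7.60% and 7.90% beside the PRMT5 KD label, below CERS5.

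Per length of union exons, CERS6 (20.7 RPKM) and SGPP1 (19.6 RPKM) stood first in control and were not separated by their 2 libraries. SGPL1 (12.2 RPKM) followed, then S1PR1 (10.1 RPKM) and ASAH1 (9.72 RPKM), not separated from each other. SPHK1 (6.64 RPKM), SPHK2 (5.70 RPKM) and S1PR3 (5.47 RPKM) overlapped their neighbours in turn, and SGPP2 (4.95 RPKM) and S1PR2 (4.48 RPKM) came last, also overlapping. SGPP2 was thus among the least abundant members even in control. In the libraries labelled PRMT5 KD the order began with SPHK1 (26.4 RPKM), SGPP1 (12.7 RPKM) and CERS6 (11.3 RPKM), each separated from the next. SGPL1 (7.04 RPKM) and S1PR3 (6.93 RPKM) overlapped. SPHK2 (5.55 RPKM), ASAH1 (3.29 RPKM), S1PR1 (2.36 RPKM), S1PR2 (1.96 RPKM) and SGPP2 (0.0337 RPKM) completed it. These ranks depend on the length used, since long minor transcripts enlarge the union of exons. On the MANE Select transcript ASAH1 (53.8 RPKM) stood first in control, with SPHK1 (64.1 RPKM) still first and SGPP2 (0.0337 RPKM) still last beside the label.

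The other 47 genes fixed for sphingolipid metabolism and S1P signalling place the members in their pathway. Of these, 35 passed the filter, and 14 (40%) were called, against 45.5% of all genes tested. The calls were 1 higher (2.86%, against 21.2% of all genes) and 13 lower (37.1%, against 24.3% of all genes), with a median log2 fold change of -0.38 against -0.0077 over all genes. Without Control 2, 6 of these genes were called, and with scaling to total counts alone 9 were called, 2 higher and 7 lower. In de novo synthesis 2 of 8 tested genes were called lower, SPTLC1 and SPTLC2, which encode subunits of the committing enzyme serine palmitoyltransferase. Its subunits SPTLC3 (log2 fold change 0.015, edgeR FDR = 0.931) and SPTSSA (log2 fold change -0.13, edgeR FDR = 0.431) were not called. SPTLC2 had 85.3 and 109 CPM in control and 42.9 and 46.2 CPM beside the PRMT5 KD label, and fell by 1.12 on the log2 scale (SE 0.15, edgeR FDR = 0.00145). Of the other ceramide synthases and desaturases 1 of 3 was called lower, CERS5. The other ceramidases tested, ACER2 (log2 fold change 0.22, edgeR FDR = 0.449) and ACER3 (log2 fold change -0.27, edgeR FDR = 0.112), were not called.

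Sphingomyelin genes had 4 of 6 called, all lower, while 24.3% of all genes tested were called lower. These were the synthases SGMS2 and SAMD8 (the latter makes ceramide phosphoethanolamine) and the sphingomyelinases SMPD1 and SMPD2. The other 2, named after their values were seen, were higher but not called. They were SMPD4 (log2 fold change 0.41, edgeR FDR = 0.0213), under the threshold of 0.5, and SGMS1 (log2 fold change 0.21, edgeR FDR = 0.157). Of 12 genes for glycosphingolipid steps, ceramide transfer and ceramide kinase, 4 were called lower and 1 higher. That is 41.7% called, near the 45.5% of all genes tested. GALC, the lysosomal galactosylceramidase, had 64.3 and 75.8 CPM in control and 14.4 and 12.7 CPM beside the PRMT5 KD label, and fell by 2.37 on the log2 scale (SE 0.14, edgeR FDR = 0.000233). The ceramide kinase CERK and the saposin precursor PSAP were also called lower. GLA, lysosomal alpha-galactosidase, was the gene called higher (log2 fold change 0.78, SE 0.11, edgeR FDR = 0.00199), and it is named here after its value was seen, as are the called genes with an absolute log2 fold change under 1. In the last group 2 of 4 were called lower, while 24.3% of all genes tested were. These were the lipid phosphate phosphatase PPAP2C (log2 fold change -0.501, edgeR FDR = 0.0287) and ALDH3A2. PPAP2A (log2 fold change -0.45, edgeR FDR = 0.0411) and PPAP2B (log2 fold change -0.43, edgeR FDR = 0.0268) were lower too but did not reach the threshold of 0.5. Both are likewise named after their values were seen. ALDH3A2, the fatty aldehyde dehydrogenase that takes up the aldehyde made by SGPL1, had 117 and 162 CPM in control and 30.9 and 33.3 CPM beside the PRMT5 KD label. It fell by 2.12 on the log2 scale (SE 0.18, edgeR FDR = 0.000477), so that SGPL1 and the enzyme after it were both lower. By mean control RPKM on union exon lengths, the genes not called with the highest level were UGCG, the glucosylceramide synthase (log2 fold change -0.33), DEGS1, the dihydroceramide desaturase (log2 fold change -0.24), and B4GALT5, the lactosylceramide synthase (log2 fold change -0.22).

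**Figure D3:**
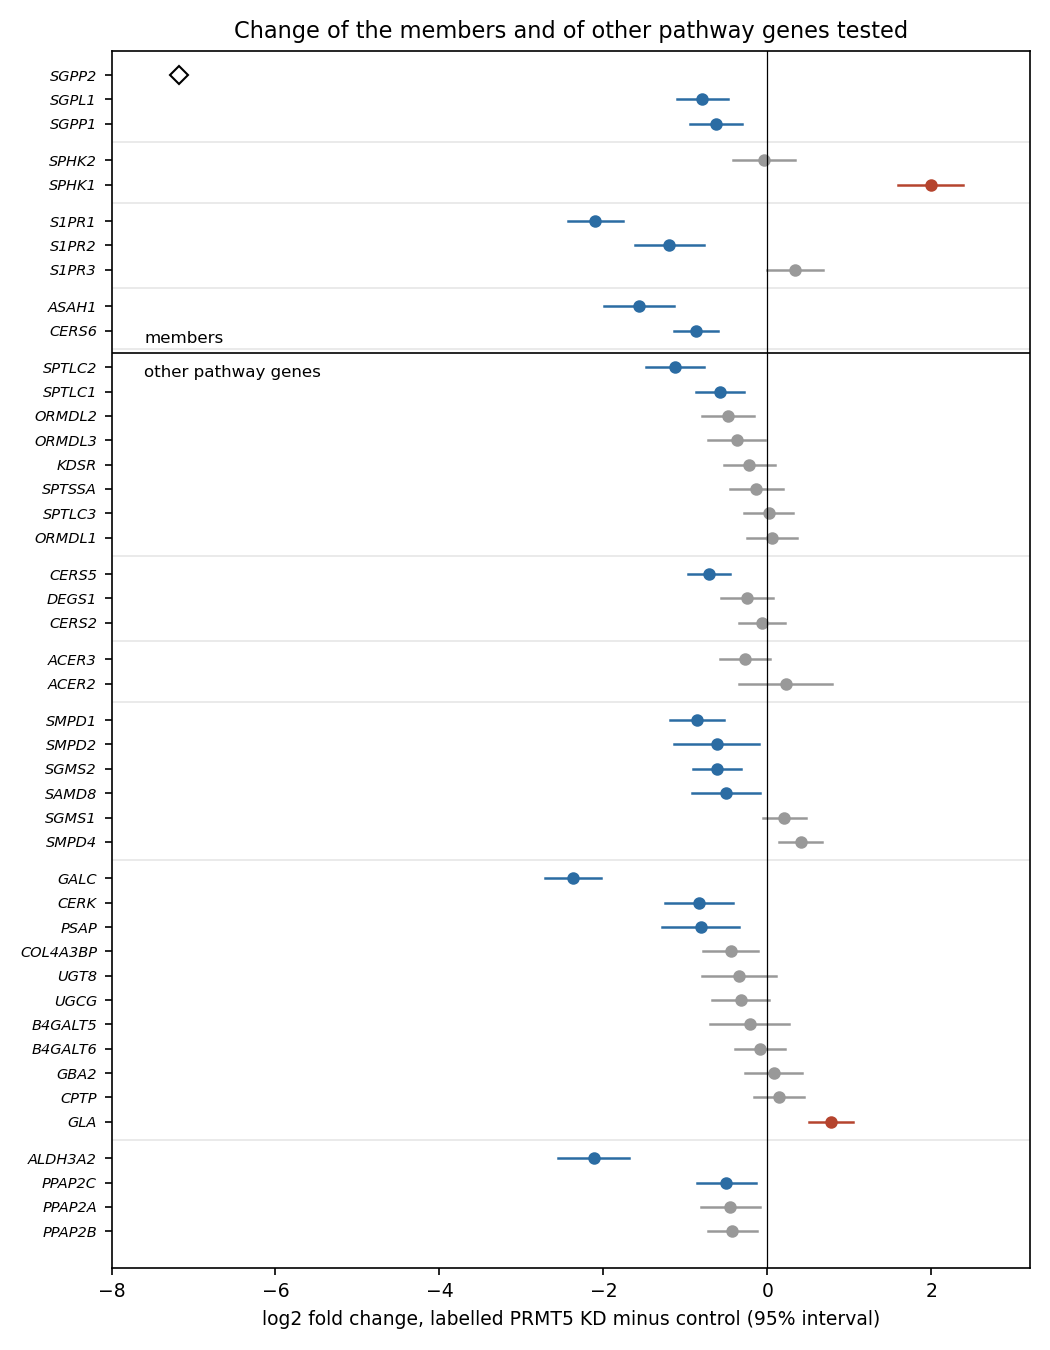
Log2 fold change, libraries labelled PRMT5 KD minus control, with 95% intervals, of the members and of the other pathway genes tested and reported here, grouped by role. Red and blue points were called higher and lower, grey points were not called, and the open diamond is SGPP2 at -7.18, drawn without an interval because it chose the set.

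Genes with the pattern most like SGPP2 were found by the Euclidean distance of log2 CPM, with a pseudocount of 0.1 CPM and centred on the control mean, over the 4 libraries. The nearest 5 were FAIM2 (distance 0.715), TIMP3 (distance 0.909), CMKLR1 (distance 0.921), ABCG1 (distance 0.926) and TNFRSF11B (distance 0.994). FAIM2 had 23.9 and 36.8 CPM in control and 0.336 and 0.272 CPM beside the PRMT5 KD label, a range close to that of SGPP2, and it is known as an inhibitor of Fas-mediated cell death. TIMP3, an inhibitor of matrix metalloproteinases, was far more abundant at 720 and 948 CPM in control and 10.2 and 12.4 CPM. FARSB, which encodes a subunit of phenylalanyl-tRNA synthetase, lies on the opposite strand with its 3′ end 4278 bases beyond that of SGPP2 (chr2:222566899-222656092). It had 41.2 and 37.5 CPM in control and 65.8 and 66.1 CPM beside the PRMT5 KD label, and rose by 0.75 on the log2 scale (SE 0.11, edgeR FDR = 0.00235). The low SGPP2 counts were thus not shared by its neighbour on that side, and the gene on the other side was not analysed here.

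Several markers of squamous epithelium and of other cell types also differed between the groups. Of 10 squamous epithelium markers, 3 passed the filter (TP63, DSG3 and ITGA6). All 3 were called lower, as were 24.3% of all genes tested. TP63 passed through its control libraries alone, which favours a fall, and was at 0.233 and 0.403 RPKM beside the PRMT5 KD label. Under the filter, KRT17 was at 0.0422 and 0.0400 RPKM in control and 0.372 and 0.496 RPKM beside the PRMT5 KD label, and KRT14 had no count in control and 0.103 and 0.204 RPKM beside the label, so these were not tested. KRT5 had no count in control. KRT5, KRT6A and CDH1 were at no more than 0.0374 RPKM in every library, so these 3 were absent or nearly so. In control, DSG3 was at 7.72 and 6.53 RPKM, ITGA6 at 8.97 and 8.59 RPKM and TP63 at 0.736 and 0.882 RPKM. The summed RPKM of all 10 was 17.9 and 16.4 in control and 7.995 and 11.5 in the libraries labelled PRMT5 KD. All 6 fibroblast markers were called lower (24.3% of all genes tested were), with summed RPKM of 113 and 124 against 15.7 and 17.1. COL3A1 passed the filter through its control libraries alone, with 0.345 and 0.619 RPKM beside the label. In both control libraries the fibroblast sum exceeded the squamous sum. Of 5 endothelial markers PECAM1 alone was tested and fell, with CDH5 at no more than 0.0266 RPKM. Their summed RPKM was 1.39 and 1.83 against 0.292 and 0.193. PECAM1 also passed through control alone, at 0.956 and 1.26 RPKM there and 0.0380 and 0.0189 RPKM beside the label. Of 6 leukocyte markers CD14 fell and CD68 rose, PTPRC and CD3E were at no more than 0.0065 RPKM, and the sums were 64.8 and 76.6 against 71.2 and 79.6 RPKM. These sums join opposite changes, with mean RPKM of 22.6 against 0.890 for CD14 and 48.0 against 74.4 for CD68. The part of these differences in the values of the members was not tested.

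**Figure D4:**
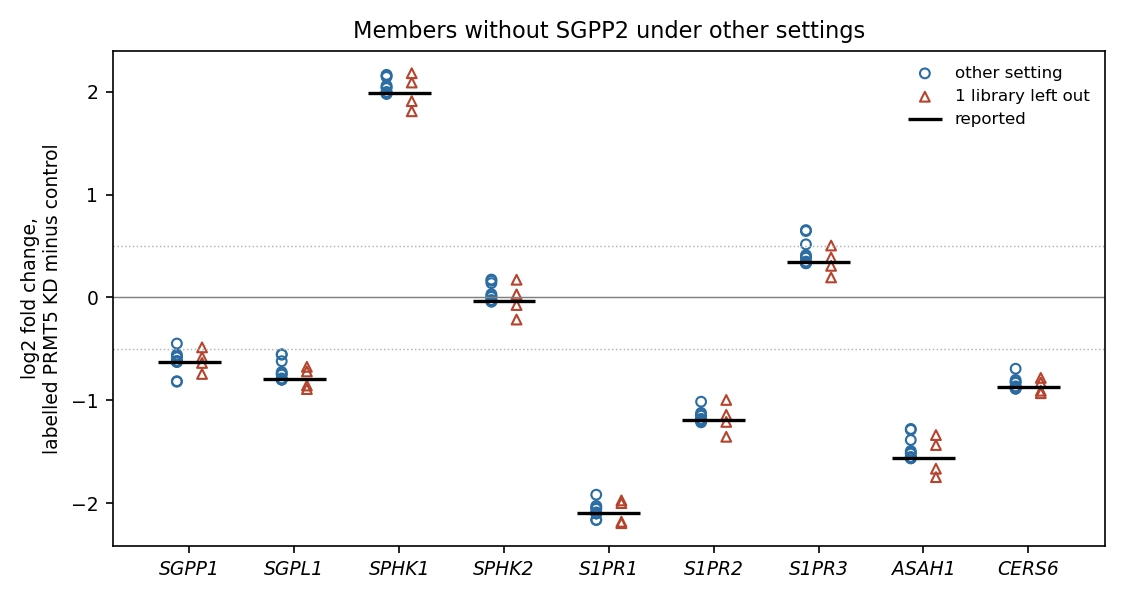
Log2 fold change of the 9 members other than SGPP2 as reported (black bars), under other settings (blue circles) and with 1 library left out (red triangles), with dotted lines at the threshold of 0.5 in either direction. SPHK1, S1PR1, S1PR2, ASAH1, SGPL1 and CERS6 stay beyond the lines, SGPP1 crosses the lower line, S1PR3 crosses the upper line, and SPHK2 lies on both sides of 0.

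Across 15 alternatives SPHK1 ranged from 1.81 to 2.18 on the log2 scale, S1PR1 from -2.20 to -1.92, S1PR2 from -1.36 to -0.997, and ASAH1 from -1.75 to -1.28. SGPL1 ranged from -0.89 to -0.55 and CERS6 from -0.93 to -0.69. These 6 genes kept their call at every alternative that kept the threshold of 0.5. SGPP2, described without a test, ranged from -7.81 to -6.72, both extremes coming from leaving out a library labelled PRMT5 KD.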

How the data were processed

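Gene-level RNA-seq tables of 4 UMSCC74B libraries were used, 2 control and 2 labelled PRMT5 KD. The authors deposited expected counts per gene name, not normalized, with 79.4% to 80.4% of nonzero values exactly whole, with no tolerance. The submitters' processing notes name FastQC, Trim Galore, STAR, Salmon and DESeq2 with GRCh38. The study's methods describe lentiviral transduction and another counter, whereas the labels describe plasmid transfection, so which applies to these tables is uncertain.

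Counts were rounded and rows of one name were summed. Date-mangled names (28 rows) were left out, holding 0.150% to 0.161% of counts. Names were matched to GENCODE v44 by current symbol (21672), older symbol (1544) or gene number (1118), while 261 were ambiguous and 5060 unmatched. The 11893 protein-coding genes that reached 0.5 RPKM in each library of one group or the other entered the fit by edgeR 4.0.16 in R 4.3.3 (TMM, robust quasi-likelihood), with Benjamini-Hochberg FDR over all of them. The filter used RPKM on union exon lengths and protein-coding totals. Reported RPKM used TMM-adjusted library sizes, with union exon lengths unless MANE Select lengths are named. The biological coefficient of variation was 0.142. Scripts were tested on simulated data. With 2 libraries against 2, a permutation test cannot reach 0.05, so none was used.

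The members and lists were chosen with earlier results of these data known. Named were all members, pathway genes called at a log2 fold change of 1 or more in either direction and the 3 most abundant not called, the 5 genes nearest SGPP2, its neighbours and PRMT5. Alternatives were DESeq2 1.42.0, other scalings, filters, thresholds and gene lengths, a length and GC offset, a replicate block, and each library left out. Some genes of the lists count in the totals but are not reported here by name.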

Additional observations from a re-analysis of the deposited data

How the results depend on the processing

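Of 135 values of the 9 members other than SGPP2 under 15 alternatives, 121 kept direction and side of the threshold. SGPP1 lost its call in 2, S1PR3 gained one in 4, and SPHK2, never called, changed sign in 8. Those SPHK2 log2 fold changes were 0.14 with total counts alone, 0.0051 with filterByExpr, 0.014 with no filter and 0.031 with all names. They were 0.16 with the length and GC offset and 0.17 with that offset and the replicate block. The others were 0.17 without Control 1 and 0.029 without PRMT5 KD 1. With each library left out in turn, SPHK2 ran from -0.22 to 0.17. The cause of these sign changes was not tested. All 45 values of SPTLC2, GALC and ALDH3A2 kept their calls.

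Leaving out 1 library, the genes called numbered 3109 to 5721 (3109 without Control 2), the members called 6 to 8 and the pathway genes called 6 to 15 (6 without Control 2). A threshold of 1 on the log2 scale, stricter by construction, left 2561 genes, 4 members (1 higher, 3 lower) and 3 pathway genes. Scaling to total counts alone moved the median over all genes (log2 fold change) from -0.0077 to 0.17 and the split of calls from 2521 higher and 2895 lower to 3504 higher and 2199 lower, with 9 pathway genes called. The SGPP2 share of both phosphatases in control was 27.5% of CPM in place of 20.3% of RPKM, since CPM is not divided by length.

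With the replicate block, 5183 genes, 7 members and 12 pathway genes were called. The deviations of same-numbered libraries correlated at -0.101, and no source says whether they share a culture or day, so the numbers were not used to pair them. A crossed pairing, added after seeing the data like the MANE Select lengths, called 5484 genes, 7 members and 13 pathway genes. At 11 and 5 counts, the SGPP2 level beside the label is limited by counting.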
